A study of Mus musculus with 220 samples.

Results

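Cell cycle transcripts were followed in single endothelial cells of mouse lymph nodes, through 40 genes of 24049 in the expression table. Of the 40 genes, 17 act in DNA replication and the supply of its building blocks (Mcm2 to Mcm7, Pcna, Tyms, Rrm1, Rrm2, Gins2, Cdc6, Cdt1, Uhrf1, Ccne1, Ccne2 and Tk1). Another 21 act in mitosis (Ccna2, Ccnb1, Ccnb2, Cdk1, Top2a, Mki67, Birc5, Bub1, Bub1b, Aurka, Aurkb, Plk1, Cdc20, Cenpe, Cenpf, Kif11, Kif20a, Nusap1, Tpx2, Ube2c and Prc1). Stmn1 and Hmgb2 were described apart from both sets. The genes were chosen by name and role, with earlier results of these data known, and all 40 were found in the table. Single-cell RNA sequencing had been done on 220 sorted cells of C57BL/6 mice, with 1 library per cell made on the Fluidigm C1 system, an instrument that captures cells one by one. The groups were 32 blood endothelial cells (BEC) of untreated, homeostatic mice, 79 high endothelial cells (HEC) of untreated, homeostatic mice, 65 inflamed HEC and 44 dedifferentiated HEC. Inflamed HEC were taken on day 3 from mice treated on the skin with 4% oxazolone, a contact sensitiser. Dedifferentiated HEC were taken on day 7 from mice given 1 intraperitoneal injection of LTBR-Ig, a soluble lymphotoxin β receptor that captures the ligands of the receptor.

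High endothelial cells line the venules through which lymphocytes enter a lymph node from the blood. A cell that enters the cycle first makes licensing factors such as Cdc6 and Cdt1, which load the ring-shaped Mcm helicase onto DNA, and then copies its genome in S phase with the sliding clamp Pcna and with nucleotides supplied by Tyms, Tk1 and the Rrm1-Rrm2 reductase. Transcripts of the mitotic set accumulate later, in G2 and mitosis, when Cdk1 with its cyclins drives division and the chromosomal passenger complex, kinesins and checkpoint kinases handle the chromosomes. Genes of the first wave are known targets of E2F factors, and genes of the second wave are known targets of the DREAM and MuvB-FOXM1 complexes.

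No animal, chip, capture day or sort gate is named in the sources used here, so each group is 1 sample made of its cells. Treatment and any difference of animal, chip or day therefore cannot be told apart, and values are given with no test. Median depth, approximated from the steps of low values, was 2167500 fragments per BEC, 1987000 per homeostatic HEC, 2299000 per inflamed HEC and 2272000 per dedifferentiated HEC. The median number of genes at 1 FPKM or more (fragments divided by transcript length and by the cell's mapped fragments) was 2870.5, 3842, 3961 and 3075 in the same order. Cells 43 and 60 of the inflamed group were close to identical, with r = 0.988 on log2 values, where the next pair reached 0.701. They were averaged and counted once, which left 64 inflamed HEC and 219 cells. At least 3 of 12 blood endothelial markers reached an FPKM of 10 in all 219 cells. At least 3 of 7 high endothelial markers did so in all 79 homeostatic, all 64 inflamed and 43 of 44 dedifferentiated HEC, and in 17 of 32 BEC. In 13 cells, 3 or more markers of another cell type reached an FPKM of 10, namely 1 BEC, 7 homeostatic, 3 inflamed and 2 dedifferentiated HEC.

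The promoters of 6 members that hold the motif letters of their set are shown. In each set they were taken by the difference between inflamed and homeostatic HEC, largest first. Members without the letters in the 200 bases, or with no sequence, were passed over. These lines therefore cannot show how far the letters separate the 2 sets. Each line gives the 200 bases before the RefSeq transcription start (GRCm38.p6), 5′ to 3′ on the gene's strand. RefSeq gives 2 starts for Uhrf1, and the downstream one is shown because the window of the other holds no E2F letters. In the first 3, which belong to replication genes, capitals mark the E2F letters TTTCCCGC, TTTGGCGC, TTTCGCGC or TTTGCCGC, searched on both strands. In the last 3, which belong to mitotic genes, capitals mark TTTGAA (or TTCAAA on the other strand), the core of the cell cycle homology region (CHR). Where matches on both strands overlap, as in TTTCGCGCCAAA of Mcm5, the capitals run through both.
Uhrf1, chr17:56304113-56304312, plus strand: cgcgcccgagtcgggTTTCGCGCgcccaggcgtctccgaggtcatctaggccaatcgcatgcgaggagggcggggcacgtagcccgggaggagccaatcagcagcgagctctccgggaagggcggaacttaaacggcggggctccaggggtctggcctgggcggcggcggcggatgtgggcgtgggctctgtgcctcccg
Mcm5, chr8:75109309-75109508, plus strand: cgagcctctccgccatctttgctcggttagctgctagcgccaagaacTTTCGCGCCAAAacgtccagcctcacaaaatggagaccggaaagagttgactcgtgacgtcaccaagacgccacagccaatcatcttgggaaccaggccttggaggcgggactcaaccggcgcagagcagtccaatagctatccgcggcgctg
Mcm6, chr1:128359706-128359905, minus strand: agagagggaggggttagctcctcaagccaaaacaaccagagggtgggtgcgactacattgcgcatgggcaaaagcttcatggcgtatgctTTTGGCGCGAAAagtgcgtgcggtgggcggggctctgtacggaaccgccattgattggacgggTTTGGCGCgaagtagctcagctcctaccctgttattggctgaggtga
Cdk1, chr10:69352913-69353112, minus strand: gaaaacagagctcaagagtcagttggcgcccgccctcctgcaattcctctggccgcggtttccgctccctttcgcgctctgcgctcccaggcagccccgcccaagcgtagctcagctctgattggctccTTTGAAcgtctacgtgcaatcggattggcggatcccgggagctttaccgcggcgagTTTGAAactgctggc
Ccnb2, chr9:70421555-70421754, minus strand: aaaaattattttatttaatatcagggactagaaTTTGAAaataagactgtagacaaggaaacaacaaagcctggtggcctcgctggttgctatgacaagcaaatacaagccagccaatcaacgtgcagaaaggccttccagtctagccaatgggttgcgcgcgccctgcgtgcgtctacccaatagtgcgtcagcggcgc
Mki67, chr7:135716380-135716579, minus strand: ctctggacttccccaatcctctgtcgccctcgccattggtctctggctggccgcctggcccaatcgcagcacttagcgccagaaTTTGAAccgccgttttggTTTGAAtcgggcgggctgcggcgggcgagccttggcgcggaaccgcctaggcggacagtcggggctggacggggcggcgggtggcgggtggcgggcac

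Over windows of 250 bases before to 50 after each start, the E2F letters were in 7 of 16 promoters of 14 matched replication genes (43.8%). They were in 1 of 18 promoters of 17 matched mitotic genes (5.56%), that of Cdk1, and in 2.26% of 32851 promoters of all genes. In the Cdk1 line above, the E2F letters are left in lower case. The CHR letters were in 13 of 18 mitotic promoters (72.2%), in 1 of 16 replication promoters (6.25%), that of Mcm2, and in 17.9% of all promoters. CCAAT, the NF-Y letters, was on either strand in 16 of 18 mitotic and 11 of 16 replication promoters, against 37.4% of all. All 13 mitotic promoters with CHR letters also held CCAAT, and both motifs were in 6.95% of all promoters. The replication promoters with E2F letters were those of Mcm3, Mcm5, Mcm6, Mcm7, Cdc6, Cdt1 and Uhrf1, for Mcm7 and Uhrf1 at 1 of 2 starts each. A match is a run of letters and was not tested as a binding site. The members with no sequence matched were Mcm4, Gins2, Ccne2, Ccna2, Aurkb, Kif20a, Tpx2 and Stmn1.

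Cells holding several genes of either set were mostly inflamed HEC. A gene was counted as held by a cell at an FPKM of 10 or more, and several meant 4 or more genes of a set. Several replication genes were held by 20 of 64 inflamed HEC (31.3%, exact Clopper-Pearson 95% interval 20.2 to 44.1%) and by 6 of 79 homeostatic HEC (7.59%, 2.84 to 15.8%). The same held for 1 of 32 BEC (3.13%, 0.0791 to 16.2%) and for 0 of 44 dedifferentiated HEC, which allows a share of up to 6.82%, taking 3 cells as the limit for a count of 0 (exact upper bound 8.04%). Several mitotic genes were held by 8 of 64 inflamed HEC (12.5%, 5.55 to 23.2%) and by 1 of 79 homeostatic HEC (1.27%, 0.0320 to 6.85%). None of 32 BEC did so, which by the limit of 3 cells allows up to 9.38% (exact upper bound 10.9%), nor did any of 44 dedifferentiated HEC, with the limits given above. Intervals and limits cover counting error over cells only, not differences between animals.

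The sets were held together more often than the mitotic set was held alone. Of the 8 inflamed cells with several mitotic genes, 7 also held several replication genes, and so did the 1 homeostatic cell. Replication genes without several mitotic genes were held by 13 inflamed HEC, 5 homeostatic HEC and 1 BEC. The remaining inflamed cell with mitotic genes, number 10, held 11 mitotic and 2 replication genes. Across the 219 cells the mean log2(FPKM + 1) of the mitotic set and that of the replication set had a Pearson r of 0.56, between 0.52 and 0.59 when each cell was left out in turn. Over the 64 inflamed HEC r was 0.48 (0.40 to 0.54). Over the 79 homeostatic HEC r was 0.61 and rested on cell 62, without which it was 0.079. These correlations are descriptions over cells that share a group and differ in depth.

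**Figure D1:**
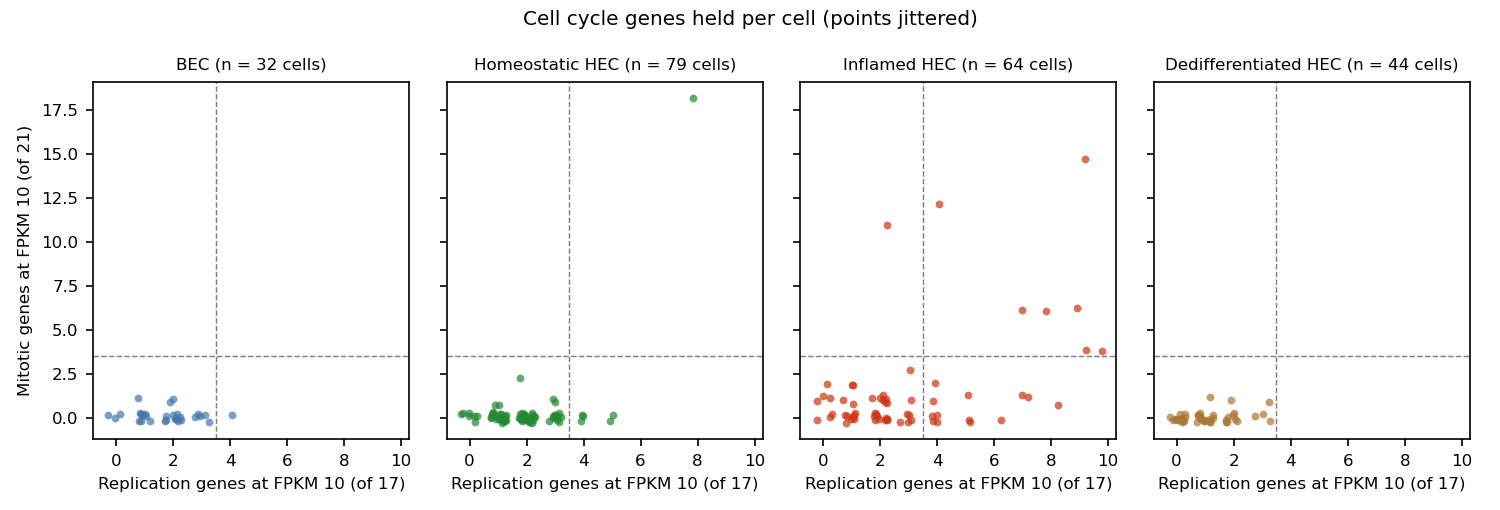
Number of the 17 replication genes (horizontal axis) and of the 21 mitotic genes (vertical axis) at an FPKM of 10 or more in each cell, 1 panel per group, with points spread slightly for visibility and dashed lines at the limit of 4 genes. Inflamed HEC fill the area beyond both lines with 7 cells, homeostatic HEC with 1, and BEC and dedifferentiated HEC with none.

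The 2 sets differed in how sharply they divided the cells. No mitotic gene was held by 73 of 79 homeostatic HEC, 29 of 32 BEC, 41 of 44 dedifferentiated and 33 of 64 inflamed HEC. Exactly 1 mitotic gene was held by 18 inflamed HEC, against 4 homeostatic HEC, 3 BEC and 3 dedifferentiated HEC. Few cells lay near the limit for mitotic genes: 1 inflamed cell held exactly 3 and 2 held exactly 4. The inflamed cell with exactly 3 was the averaged cell 43, in which 4 of the 7 B lymphocyte markers also reached an FPKM of 10. The limit for replication genes cut through a denser range, with exactly 3 genes in 15 homeostatic HEC, 7 inflamed HEC, 5 BEC and 4 dedifferentiated HEC, and exactly 4 genes in 7 inflamed HEC, 3 homeostatic HEC and 1 BEC. The median cell held 2 replication genes in BEC, homeostatic and inflamed HEC and 1 in dedifferentiated HEC. The highest number was 10 in an inflamed cell, 8 in a homeostatic HEC, 4 in a BEC and 3 in a dedifferentiated cell.

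The counts moved with the number of genes detected and with 3 widely held genes. Without Tyms, Pcna and Mcm3, several replication genes were held by 11 inflamed HEC, 1 homeostatic HEC and 0 BEC. Among cells between the 25th and 75th percentile of genes detected (3001.5 to 4192 genes), several replication genes were held by 6 of 36 inflamed and 1 of 40 homeostatic HEC, and several mitotic genes by 1 of 36 and 0 of 40. The 8 inflamed cells with several mitotic genes had a median of 4823.5 genes detected, the 13 with replication genes only had 4286, and the other 43 had 3771. The part of gene detection in the counts was not tested.

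Tyms, thymidylate synthase, was the most widely held member. Its FPKM ranged from 0.16 to 151 over BEC (median 16.4), from 0 to 132 over homeostatic HEC (median 11.8), from 0.59 to 416 over inflamed HEC (median 19.8) and from 0.62 to 112 over dedifferentiated HEC (median 5.87). The groups overlapped over most of their range, and all but 1 of the 219 cells had a value above 0. Tyms was held by 27 of 32 BEC, 46 of 79 homeostatic, 40 of 64 inflamed and 14 of 44 dedifferentiated HEC. Within the inflamed cells its median was 161 where several mitotic genes were held, 19.3 where several replication genes only were held, and 15.4 where several of neither set were.

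Pcna was near absent in some cells and abundant in others of every group. Its FPKM ran from 0 in each group up to 920 among BEC (median 0.82), 1083 among homeostatic (0.67), 835 among inflamed (7.23) and 779 among dedifferentiated HEC (1.14). It was held by 11 BEC, 29 homeostatic, 29 inflamed and 13 dedifferentiated HEC. Mcm3, a subunit of the helicase, was held by 3 of 32 BEC, 25 of 79 homeostatic, 25 of 64 inflamed and 7 of 44 dedifferentiated HEC, with highest values of 239, 241, 175 and 233. High Pcna or Mcm3 was therefore found in all 4 groups. Tyms, Pcna and the mitotic cyclins Ccnb1 and Ccnb2 have named pseudogene copies in the annotation, and how reads were divided between copies is not given in the sources used here, so their values are uncertain.

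The other helicase subunits were held by fewer cells. Mcm6 was held by 2 BEC, 10 homeostatic, 14 inflamed and 4 dedifferentiated HEC. Mcm4 was held by 1, 10, 11 and 0 cells in the same order, and its highest dedifferentiated value was 8.06. Mcm2 was held by 1, 2, 6 and 1 cells and Mcm7 by 1, 9, 5 and 1 cells. Mcm7 was the 1 replication gene with a lower share of cells in inflamed than in homeostatic HEC; it overlaps Cops6, Ap4m1 and a microRNA cluster, and whether counting used the strand is not given, so its reads may include theirs. Mcm5 stood out among the subunits, being held by 1 BEC at 38.8, by 1 homeostatic HEC at 48.5 and by 9 inflamed HEC at 13 to 274. No dedifferentiated HEC held Mcm5, whose highest value there was 3.74.

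Uhrf1, which guides maintenance of DNA methylation at replicated DNA, showed the clearest division of the replication set. It lies at chr17:56303321-56323486 (GRCm38, GENCODE, plus strand). It was above 0 in 43 of 64 inflamed HEC, 9 of 79 homeostatic HEC, 7 of 32 BEC and 0 of 44 dedifferentiated HEC. It was held by 11 inflamed HEC, at 16.1 to 260, and by 2 homeostatic HEC, at 17.8 and 102. Its highest value in BEC was 1.93. The inflamed median was 0.33, and those of the other groups were 0.

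Licensing factors and G1/S cyclins were rarer still. Cdc6 was held by 3 inflamed HEC, at 17.2, 55.8 and 77, and its highest value elsewhere was 0.17. Ccne1, the cyclin E1 that activates Cdk2 at S phase entry, was held by 3 inflamed HEC, at 10.2, 13.7 and 27.9, and was listed at 0 in every cell of the other groups. Ccne2 was held by 1 BEC, 2 homeostatic and 3 inflamed HEC. Cdt1, by contrast, had its highest value in a dedifferentiated cell, at 853 in cell 22, and was held by 2 dedifferentiated, 2 homeostatic and 3 inflamed HEC. Cdt1 and Gins2 both overlap the readthrough gene Gm20388, so their values are uncertain.

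Nucleotide enzymes other than Tyms followed the inflamed cells in part. Rrm2, the reductase subunit made mainly in S phase, was held by 7 inflamed HEC at 11 to 82.2 and by 2 homeostatic HEC at 127 and 228. It was listed at 0 in all 44 dedifferentiated HEC and reached 0.34 in BEC. Rrm1, its partner, was held in every group, by 6 BEC, 10 homeostatic, 13 inflamed and 5 dedifferentiated HEC, and its highest value of 942 was in a BEC. Tk1, thymidine kinase, was held by 6 inflamed HEC at 22.8 to 430, by 3 homeostatic HEC at 21.2 to 400 and by 1 BEC at 18.3. Gins2, a subunit of the replicative helicase complex, was held by 4 inflamed HEC and 1 homeostatic HEC.

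**Figure D2:**
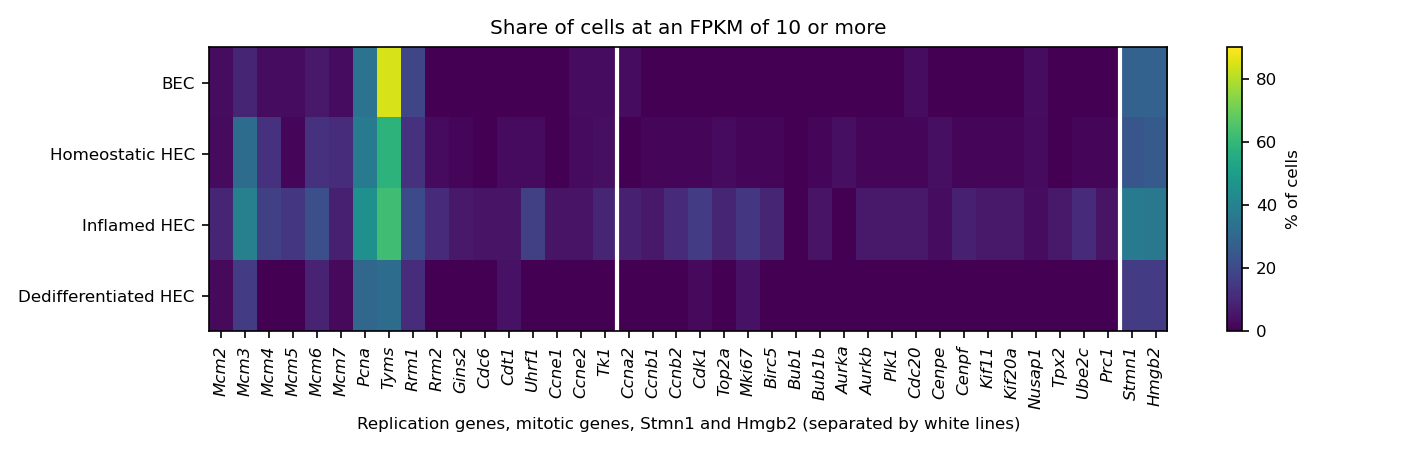
Share of cells (%) that hold each gene at FPKM 10, for the 40 genes (columns) in each group (rows), with white lines between replication genes, mitotic genes and Stmn1 with Hmgb2. Tyms and Pcna are held widely in every group, and mitotic genes are held by few cells outside the inflamed row, where Cdk1 reaches 15.6%.

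Mitotic cyclins and their kinase were held almost only by inflamed HEC. Cdk1 (chr10:69335146-69352938, minus strand) was held by 10 inflamed HEC, at 15 to 260, by 1 homeostatic HEC at 115 and by 1 dedifferentiated HEC at 178. Its highest value in BEC was 0.19. Ccnb2, cyclin B2, was held by 7 inflamed HEC at 55.7 to 709 and by 1 homeostatic HEC at 65.5. Of those 7 inflamed cells, 4 held several mitotic genes, and Ccnb2 was also at 516 in cell 52, 434 in cell 18 and 235 in cell 4. Ccnb1 was held by 4 inflamed HEC, with its highest value of 1164 in cell 29, which was not among the cells with several mitotic genes, and by homeostatic HEC 62 at 312. Ccna2, cyclin A2, was held by 5 inflamed HEC at 10.5 to 40.8 and by 1 BEC at 68.3. High values of single cyclins thus occurred in cells that held few other mitotic genes.

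Among proliferation markers, Mki67, which coats mitotic chromosomes, was held by 9 inflamed HEC at 13.6 to 106, by 2 dedifferentiated HEC at 18.9 and 153, and by 1 homeostatic HEC at 110. Of the 9 inflamed cells, 6 held several mitotic genes. Top2a, topoisomerase II alpha, was held by 6 inflamed HEC at 24.4 to 103 and by 2 homeostatic HEC at 60.4 and 643. Top2a was listed at 0 in every dedifferentiated HEC. Birc5, survivin, a subunit of the chromosomal passenger complex, was held by 6 inflamed HEC at 12.5 to 788, all with several mitotic genes, and by 1 homeostatic HEC at 741. Low Birc5 was common: it was above 0 in 29 of 32 BEC with a highest value of 5.56, in 65 of 79 homeostatic, 61 of 64 inflamed and 29 of 44 dedifferentiated HEC.

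Spindle and checkpoint genes were each held by 0 to 7 inflamed cells. Plk1, a mitotic kinase, was held by 4 inflamed HEC at 10.9 to 335, all with several mitotic genes, and by 1 homeostatic HEC at 15.3. Aurkb, the kinase of the passenger complex, was held by 4 inflamed HEC at 23.7 to 347 and by 1 homeostatic HEC at 232. Aurka, the spindle pole kinase, was the exception: it was held by 3 homeostatic HEC at 32.2, 113 and 234 and by 0 of 64 inflamed HEC, where its highest value was 7.04. The cells at 113 and 32.2, numbers 18 and 70, each had 3 B lymphocyte markers at an FPKM of 10, with 2 and 6 leukocyte markers. Without them Aurka was held by homeostatic HEC 62 alone. Such cells were kept in the counts of every gene, in all groups. The averaged inflamed cell 43, with 4 B lymphocyte markers, was counted for Ccnb1 at 462, Bub1b at 63.6, Mcm2 at 42.6 and Ccna2 at 10.5. Inflamed cell 40, also with 4, was counted for Cdt1 at 231. Homeostatic HEC 70 was counted for Cenpe at 20.9 and homeostatic HEC 79 for Cdt1 at 16.1. Bub1, a spindle checkpoint kinase, was held by none of the 219 cells, with a highest value of 2.49. Ube2c, the E2 enzyme of the anaphase-promoting complex, was held by 7 inflamed HEC at 15.9 to 299 and 1 homeostatic HEC at 580, and like Birc5 was above 0 at low values in 24 of 32 BEC.

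The motor and microtubule genes Kif11, Kif20a, Cenpe, Nusap1, Tpx2 and Prc1 were held by 2 to 4 inflamed HEC each. Nusap1, which bundles microtubules, was at 19.9 and 48.6 in 2 inflamed HEC, below its values of 149 and 160 in 2 homeostatic HEC and 61.9 in 1 BEC. Kif11, Kif20a and Prc1 were also held by homeostatic HEC 62. Tpx2, which activates Aurora A on the spindle, was held by 4 inflamed HEC at 17.3 to 144 and by no cell of another group. Cenpe was held by 2 inflamed HEC at 104 and 157 and by 3 homeostatic HEC at 13.1 to 90.5. The activator of the anaphase-promoting complex Cdc20 was held by 4 inflamed HEC at 15.6 to 93.6, 1 homeostatic HEC at 21 and 1 BEC at 187. Cenpf was held by 5 inflamed HEC and 1 homeostatic HEC, and Bub1b by 3 and 1. Ccna2, Cdc20, Kif20a, Nusap1, Ube2c and Prc1 each overlap a neighbouring protein-coding gene, so some of their reads may belong to it.

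**Figure D3:**
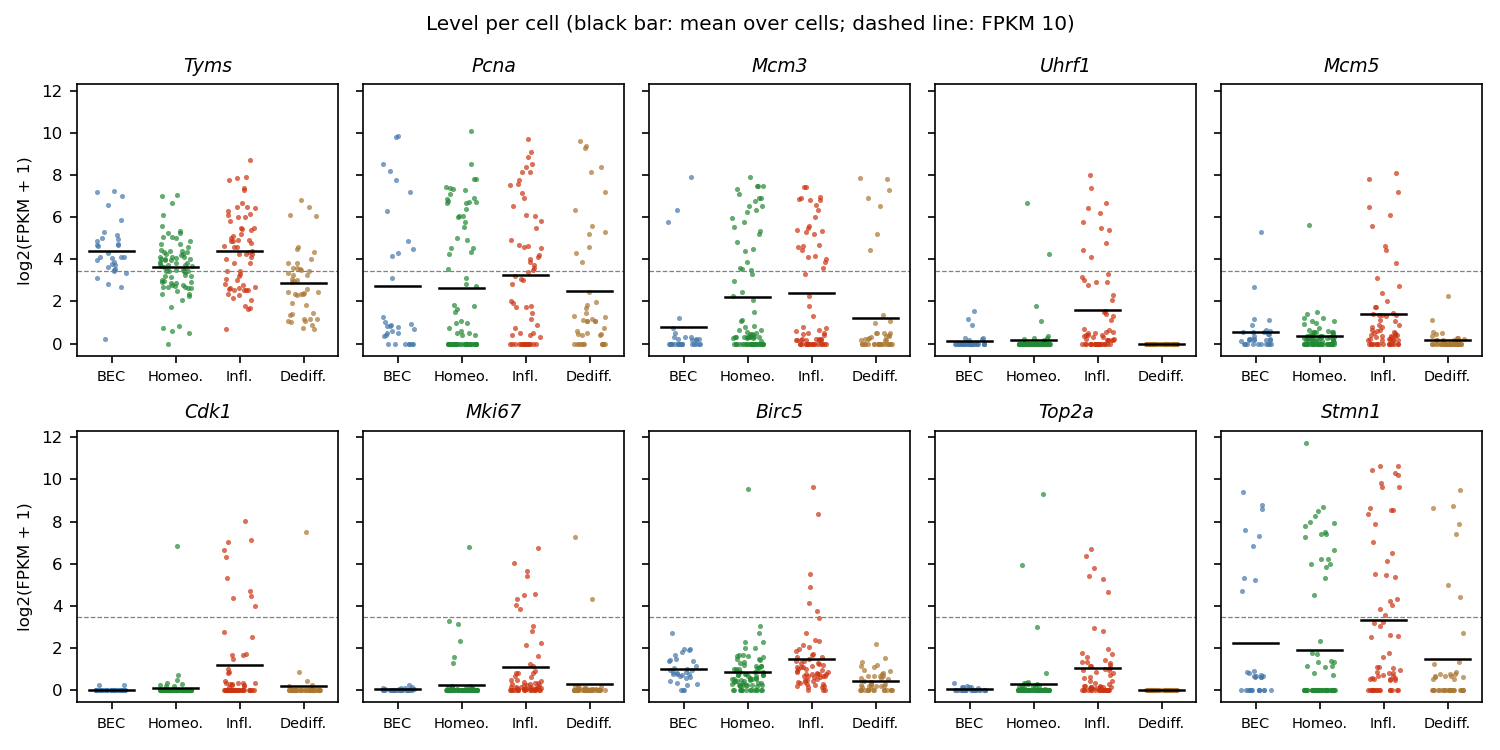
Level of 10 members in every cell on a log2(FPKM + 1) axis, by group, with the mean over cells as a black bar and FPKM 10 as a dashed line. Tyms forms 1 broad cloud in each group, Pcna and Mcm3 split into low and high cells in each group, and Uhrf1, Cdk1 and Top2a have their high cells mostly among the inflamed HEC.

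The 9 cells with several mitotic genes differed in which genes they held. Homeostatic HEC 62 held the most, 18 of 21 mitotic genes with 8 of 17 replication genes. In it Birc5 was at 741, Top2a at 643, Ube2c at 580, Ccnb1 at 312 and Aurka at 234. Its replication genes were led by Tk1 at 400, Mcm7 at 350 and Rrm2 at 228, while Mcm2, Mcm3 and Mcm6 were listed at 0 and Pcna was at 0.96. The other 78 homeostatic HEC held at most 2 mitotic genes, so this cell alone set most of the homeostatic maxima of the mitotic set.

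Inflamed HEC 49 held 15 mitotic and 9 replication genes. Its mitotic genes were led by Prc1 at 545, Aurkb at 347, Kif20a at 339, Plk1 at 335, Ube2c at 298 and Cdk1 at 260, and Tk1 was at 430. Inflamed HEC 53 held 12 mitotic and 4 replication genes, with Birc5 at 330, Ccnb1 at 211, Tpx2 at 113 and Cenpe at 104, while Cdk1, Plk1 and Aurkb were listed at 0. Inflamed HEC 10 held Birc5 at 788, Plk1 at 262, Tpx2 at 144, Cenpf at 116 and Mki67 at 106, with Cdk1 at 0.28. Its only held replication genes were Tyms at 416 and Mcm3 at 20.9, and Mcm2, Mcm6, Mcm7, Uhrf1 and Tk1 were listed at 0. These 3 cells and homeostatic HEC 62 held more mitotic than replication genes.

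The other 5 inflamed cells held more replication than mitotic genes. Cell 17 held 10 replication genes, led by Mcm6 at 330, Mcm5 at 274, Cdt1 at 237, Tk1 at 169 and Uhrf1 at 167, with 4 mitotic genes, the highest of which was Ube2c at 51.8. Cell 47 held 9 replication genes, led by Pcna at 338, Mcm7 at 309, Mcm6 at 261 and Uhrf1 at 260, with Cdc6 at 77 and 4 mitotic genes including Cdk1 at 99.3. Cell 32 held 9 replication and 6 mitotic genes, with Ube2c at 299, Gins2 at 143, Pcna at 142 and Cdk1 at 79.9. Cell 42 held 8 and 6, with Ccnb2 at 709 and Cenpe at 157. Cell 6 held 7 and 6, with Tyms at 166, Pcna at 66.2 and Top2a at 55.4. The order of the cells from mitotic to replication genes is a reading of these counts, and no phase was assigned.

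**Figure D4:**
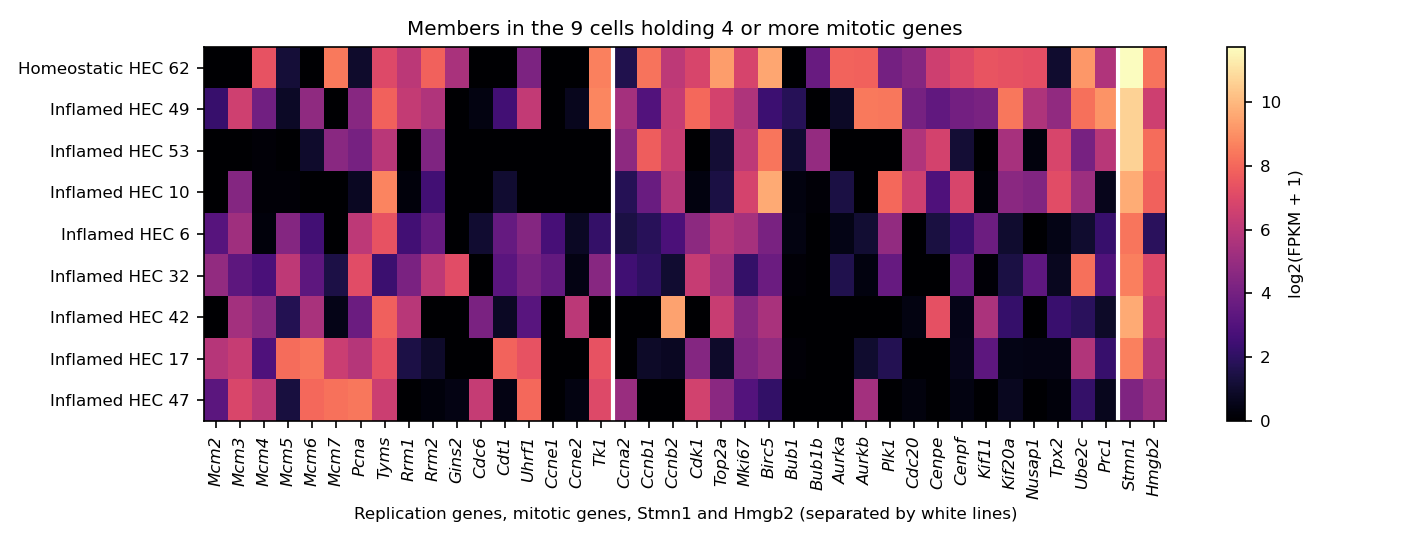
Colour gives log2(FPKM + 1) of each of the 40 genes (columns) in the 9 cells with 4 or more mitotic genes (rows), with white lines between the sets. Of the 4 upper rows, homeostatic HEC 62 and inflamed HEC 49 are bright across most of the mitotic block. Inflamed HEC 53 and 10 are bright in part of it, with 12 and 11 mitotic genes held. The 2 lowest rows are brightest in the replication block, and Stmn1 is at 18.9 to 3366 FPKM in all 9.

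Stmn1, stathmin, a protein that destabilises microtubules, was high in all 9 cells with several mitotic genes. It was at 3366 in homeostatic HEC 62 and between 18.9 and 1622 in the 8 inflamed cells, whose median was 597. It was held by 4 of the 13 inflamed cells with replication genes only (median 1.13) and by 12 of the 43 other inflamed cells (median 0.82). It was also held by 9 of 32 BEC, at values up to 679, and no BEC held several mitotic genes. Hmgb2, a chromatin protein abundant in dividing cells, was held by 7 of the 8, 9 of the 13 and 7 of the 43 inflamed cells, with medians of 92.7, 24.2 and 1.25. Neither gene entered the count that defined these cells.

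Among the inflamed cells with replication genes only, the held genes were chiefly Tyms in 11 of 13, Mcm3 in 8, and Pcna, Mcm4 and Mcm6 in 7 each. Birc5, Mki67, Top2a and Plk1 were held by none of these 13 cells, and Cdk1 by 3. In the 8 cells with mitotic genes, Uhrf1 was held by 5 and Tk1 by 4, and in the 13 cells by 4 and 2. These counts describe classes that the members themselves define.

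Endothelial identity was read from markers outside the 40 genes. All 9 cells with several mitotic genes had Pecam1, a pan-endothelial adhesion molecule, at 297 to 1271. The 12 blood endothelial markers summed to 2430 to 4511 in the 8 inflamed cells and to 3612 in homeostatic HEC 62. Single markers of that list were missing: Cldn5 was at 0 in 8 of the 9 cells and Erg at 0 in inflamed cells 6, 10 and 17. Tie1 was below 1 in cells 6 and 32, Kdr in cell 32 and Tek in cell 10. In the 8 inflamed cells the B lymphocyte markers summed to an FPKM of 0 to 0.21, and the leukocyte markers Ptprc, Laptm5 and Cd52 were at 0. The leukocyte list summed to 1.76 to 964, and 1 of its 8 markers, Arhgdib, reached an FPKM of 10. Of 8 T lymphocyte markers 1 did so, Lck at 233 in cell 17. Of 5 lymphatic endothelial markers 2 did so, and that list summed to 0 to 416. The part of these in the result was not tested. In homeostatic HEC 62 the leukocyte list summed to 8.55, with Ptprc, Laptm5 and Cd52 at 0 and no B lymphocyte marker at 10. Its lymphatic endothelial list summed to 0 and its platelet list to 174, with 1 of 5 platelet markers at an FPKM of 10. None of the 9 cells had 3 markers of another cell type, against 2 of the 13 inflamed cells with replication genes only, both with B lymphocyte markers. Glycam1, a sialomucin of high endothelium, had a median of 1272 (336 to 4272) in the 8 cells, 5234 (329 to 107531) in the 13 and 11352 (207 to 115345) in the other 43. The chemokine gene Ccl21a had medians of 893, 6792 and 25785 in the same order, and the ranges of the 3 classes overlapped for both genes. Fut7 (20.7, 132 and 154) and Madcam1 (0, 0.41 and 0.52) were ordered likewise. The medians of Chst4 (109, 485 and 329), Gcnt1 (6.28, 35.8 and 32.5) and Ubd (1866, 8801 and 6625) were highest in the 13 cells. Pecam1 had medians of 636, 476 and 576. What part cell state, detection or sampling of 8 cells has in these medians was not tested.

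Between inflamed and homeostatic HEC, 39 of the 40 genes had a higher mean log2(FPKM + 1) in inflamed HEC, under deposited values and under both rescalings of the cells alike. Of all 15949 genes above 0 in either group, 9069 (56.9%) were higher in inflamed HEC. The exception was Aurka, at 0.15 against 0.33. Differences of 1 or more were found for 5 of 40 members, against 3.27% of the same 15949 genes. Stmn1 was at 3.32 ± 3.66 (SD over 64 cells) against 1.92 ± 3.13 over 79 cells, a difference of 1.39. The others were Uhrf1 (1.39), Cdk1 (1.06), Mcm5 (1.05) and Ccnb2 (1.0). Each of these differences was smaller than the SD over cells within inflamed HEC, where a minority of cells held the gene. Hmgb2 (0.98), Ccnb1 (0.85), Mki67 (0.84), Tyms (0.79) and Top2a (0.77) came next. With no replicate of either group, none of these differences has a replicate check.

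The median difference was 0.57 over the 17 replication genes and 0.46 over the 21 mitotic genes, against 0.01 over all genes above 0. Over the genes at an FPKM of 1 in more than 10% of the cells of either group, it was 0.60 over 14 replication genes, 0.56 over 15 mitotic genes and 0.10 over all 9525. In 33 of 40 members the difference stayed above 0 under all 9 other settings. Mcm3, Top2a, Kif11 and Nusap1 turned negative when arithmetic means were compared, Rrm1 and Cenpe when only the middle range of genes detected was used. Homeostatic HEC 62 carried the arithmetic mean of several mitotic genes: the homeostatic mean of Top2a was 9.03 with that cell at 643. By share of cells, 6 of 40 members were held by at least 10 more percentage points of inflamed than of homeostatic HEC, against 6.92% of all genes. These were Uhrf1 (14.7 points), Cdk1 (14.4), Stmn1 (13.4), Mcm5 and Mki67 (12.8 each) and Hmgb2 (10.6). No member was lower by 1, against 1.55% of all genes, or by 10 points, against 4.18%. Restricted to cells of the middle range of genes detected, 0 members passed a difference of 1 and 1 passed 10 points. The shares of all genes in that range are not given here.

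**Figure D5:**
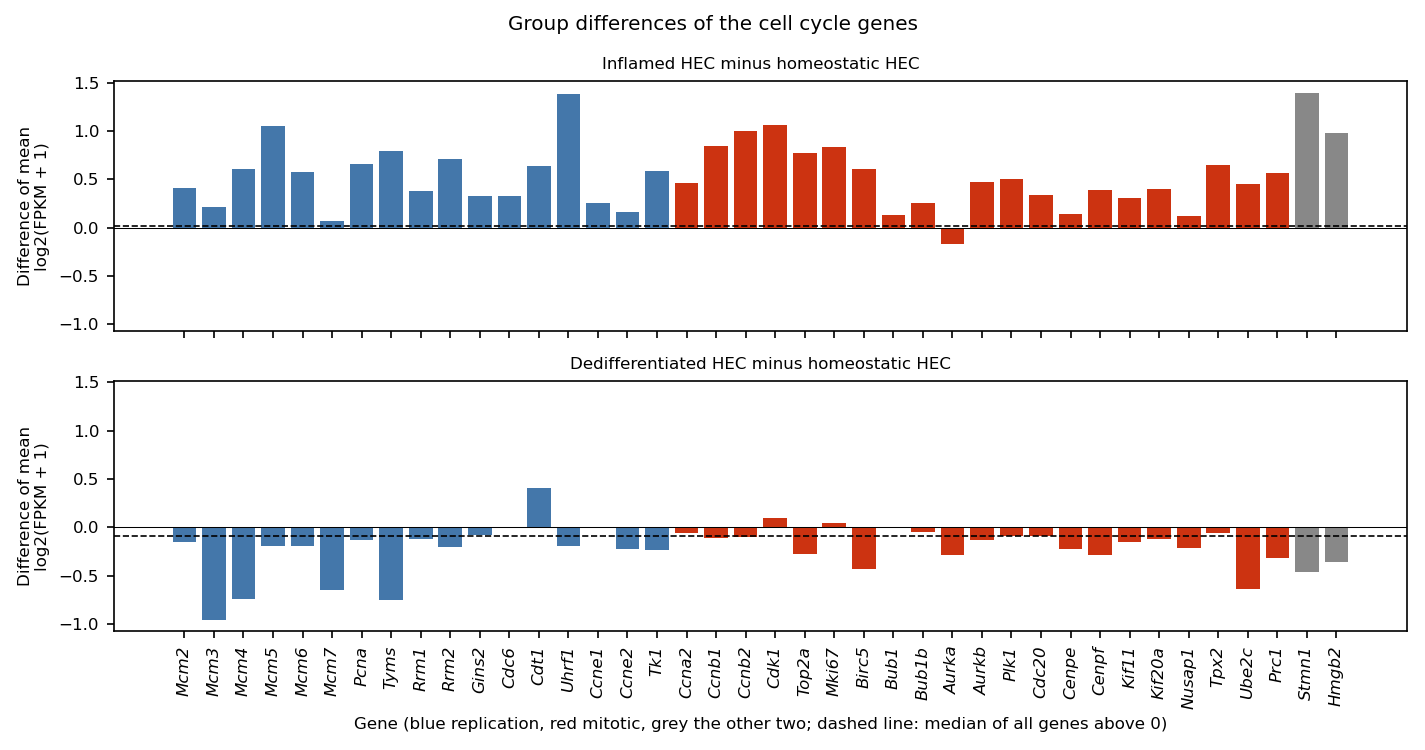
Difference of mean log2(FPKM + 1) for each of the 40 genes, inflamed minus homeostatic HEC above and dedifferentiated minus homeostatic HEC below, with replication genes in blue, mitotic genes in red, Stmn1 and Hmgb2 in grey, and the median of all genes above 0 as a dashed line. The upper bars are above 0 but for Aurka, and the lower bars are mostly below 0 with none past -1.

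Between dedifferentiated and homeostatic HEC, which is the same homeostatic group as in the comparison with inflamed HEC, no member differed by 1 or more in either direction. Of all 15259 genes above 0, 5.62% were lower by that size and 0.492% higher. The largest differences were Mcm3 (-0.96), Tyms (-0.75), Mcm4 (-0.74), Mcm7 (-0.65) and Ube2c (-0.64). By share of cells, 3 members were lower by 10 points or more, namely Tyms (-26.4 points), Mcm3 (-15.7) and Mcm4 (-12.7), against 15.8% of all genes, and none was higher, against 0.937%. The 35 members below 0, of 38 with a nonzero difference, became 29 when cells were rescaled by their median ratio, and Tyms then turned from -0.75 to 0.32 and Pcna from -0.14 to 0.54. Of all 15259 genes, 11368 (74.5%) were below 0, and 51.4% after that rescaling. That rescaling moved the median of all genes at an FPKM of 1 in more than 10% of cells from -0.30 to 0.10. The medians over all 17 replication and all 21 mitotic genes were -0.19 and -0.12, against -0.09 over all genes above 0. Dedifferentiated HEC listed Uhrf1, Rrm2, Gins2, Cdc6, Ccne1, Ccna2, Ccnb2, Top2a, Bub1, Bub1b, Aurkb, Plk1, Cdc20 and Nusap1 at 0 in all 44 cells. Ccne1 and Bub1 were also at 0 in all 79 homeostatic HEC, where Cdc6 reached 0.17. The share of all genes at 0 in dedifferentiated HEC is not given here. Their median number of genes detected was 3075, against 3842 in homeostatic HEC, and its part in these zeros was not tested. Single high values still occurred in dedifferentiated HEC, with Cdk1 at 178 in cell 23 and Mki67 at 153 in cell 5.

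Between homeostatic HEC and BEC, members lay on both sides of 0. One gene was higher by 1 or more, Mcm3 (difference 1.42, 22.3 more percentage points of cells), against 10.1% of 15615 genes above 0, and none was lower by 1, against 2.61%. Tyms was lower in homeostatic HEC by 26.1 points and by a difference of -0.76, which became -1.85 after rescaling by the median ratio. It was the only member lower by 10 points, against 4.53% of all genes, and Mcm3 the only one higher, against 16.9%. Rrm1 had a difference of -0.66. The medians were 0.06 over the replication and 0.04 over the mitotic genes, against 0.05 over all genes above 0. Of 40 members 25 were above 0 and 14 below, against 63.6% and 36.4% of the 15615 genes. After that rescaling 20 and 19 were, against 50.7% and 49.3%.

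Other genes of the same processes were read from lists, which were also chosen with earlier results of these data known. Of all 15949 genes, 56.9% were higher in inflamed than in homeostatic HEC and 3.27% were so by 1 or more. Of 32 further replication genes, 28 had a higher mean in inflamed than in homeostatic HEC, 1 by 1 or more, and their median was 0.20. That gene was Tipin, a replication fork protection factor, at 2.55 ± 3.03 against 1.2 ± 2.26 (SD over cells). Nasp, a histone chaperone, was held by 16 of 64 inflamed and 8 of 79 homeostatic HEC, and Atad2 by 21 and 11. Of 35 further mitotic genes, 32 had a higher mean, 1 by 1 or more, with a median of 0.22. In both lists the count by 1 or more was near that of all genes. The mitotic list gene was Cks2, a subunit of cyclin-dependent kinase complexes, which was held by 22 of 64 inflamed and 7 of 79 homeostatic HEC and by 0 BEC and 0 dedifferentiated HEC, and whose difference was 1.85. Smc4, a condensin subunit, was held by 40 of 64 inflamed and 50 of 79 homeostatic HEC and did not follow the mitotic set.

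Of 41 cycle regulators, 25 had a higher and 14 a lower mean in inflamed HEC, with a median of 0.07. Of all 15949 genes, 56.9% were higher and 43.1% lower, so these direction counts were near those of all genes. Trp53, which encodes the tumour suppressor p53, was higher by 1.42, the only regulator higher by 1 or more, against 3.27% of all genes. The antiproliferative gene Btg2 (-2.32), the stress gene Gadd45g (-1.79) and Mycn (-1.27) were lower by 1 or more, against 1.55% of all genes. E2f1, an activator of the replication genes, had a mean of 1.69 ± 1.38 against 0.85 ± 0.76 and was held by 7 of 64 inflamed and 1 of 79 homeostatic HEC. Foxm1, an activator of the mitotic genes, was held by 2 inflamed HEC and 1 homeostatic HEC. Ccnd1, cyclin D1 of the G1 phase, was held by 63 of 64 inflamed, 75 of 79 homeostatic, 34 of 44 dedifferentiated HEC and 18 of 32 BEC. Its mean was 7.57, 7.34, 5.34 and 4.05 in that order, and cyclin D1 RNA was thus held in most cells that held no mitotic gene.

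The genes whose log2 values over the 219 cells most resembled the mean of the mitotic set were Racgap1 (r = 0.78), Ttk (0.73), Cdca8 (0.68), Cdkn3 (0.67), Cenpa (0.66), Ncapg2 (0.65), Incenp (0.64), Tacc3 (0.61), Dlgap5 (0.59), Hmmr (0.58), Mad2l1 (0.56) and Ndc80 (0.54). They were the highest of 9570 genes at an FPKM of 1 in at least 5% of cells. Each was held by 2 to 10 cells, so the coefficients rest on few cells, and Ttk was held by 2. For the replication set the highest reported here were Ttk (0.60), Ncapg2 (0.58), Incenp and Racgap1 (0.53 each), Cks2 (0.49), Gins1 (0.48), Pomt2 (0.47), Tipin (0.46), Hells (0.44), Tmem97 and Ms4a6d (0.43 each). Cks2 was held by 29 cells, including 6 of the 8 inflamed cells with several mitotic genes, and Tipin by 43, including 7 of the 8. The cells share group and depth, and the coefficients are descriptions.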

How the data were processed

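Libraries of 220 sorted lymph node cells, 1 per cell, were analysed from 1 deposited table of FPKM values made by the authors. The submitters' processing notes name CASAVA 1.8, the quantifier RSEM 1.2.18 and build mm10. Not given in the sources used here are tool roles, annotation, strand use and any filter on cells or doublets. The labels set the groups. The 40 members, the sets and the gene lists were chosen with earlier results of these data known.

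Because no animal is named, a group is 1 sample and nothing was tested, and no doublet caller was run. Cells of a group with Pearson r above 0.9 were averaged (1 pair). Computed from the deposited FPKM, without rescaling, were shares of cells at FPKM 10 with exact Clopper-Pearson 95% intervals, and means and SDs over cells of log2(FPKM + 1), a scale that understates ratios of low genes. Depth came from the spacing of low FPKM in 2975 single-transcript genes. For 20 simulated cells it was between 0.995 and 1.002 of the truth, but a cell may be off by a multiple, so only medians are given. Reads were amplified and carry no molecular tags, so they do not count molecules. The genes named were all members, list genes, and the 12 most correlated with each set's mean among 9570 genes with no predicted, clone or small RNA name. Of these, 1 is not reported here. Promoters came from RefSeq (GRCm38.p6) and positions from GENCODE (GRCm38). Alternatives were the limits on FPKM and members, pseudocounts of 0.1 and 10, arithmetic means, rescalings, cell filters and leaving out each cell. Leaving out Tyms, Pcna and Mcm3, or homeostatic HEC 62, was chosen after seeing the data. Python 3.11.15, numpy 2.4.6, pandas 2.3.3, scipy 1.17.1 and matplotlib 3.10.9 were used.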

Additional observations from a re-analysis of the deposited data

How the results depend on the processing

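Of 272 alternative values of group results, 200 stayed within a set limit of the main value and 72 did not. The limit was the interval for a share of cells and the SD over cells for a median difference. For a count of members it was a fixed ratio of the counts. In inflamed against homeostatic HEC the SD was larger than the main median differences. A median with no difference left would there still have counted as within the limit. Sign changes were labelled only for main differences of 1 or more, and no main median reached that. The replication median of dedifferentiated against homeostatic HEC did change sign when rescaled by median ratio, as given below. Cells holding several replication genes (main counts 1 BEC, 6 homeostatic, 20 inflamed and 0 dedifferentiated HEC) numbered 29 homeostatic and 42 inflamed HEC at an FPKM limit of 1, 1 and 6 at a limit of 50, 6 BEC, 21 homeostatic and 4 dedifferentiated HEC with 3 members required, and 0 BEC, 1 homeostatic and 10 inflamed HEC with 6 required. In the middle range of genes detected they numbered 0 of 10 BEC, 1 of 40 homeostatic and 6 of 36 inflamed HEC, and without Tyms, Pcna and Mcm3 0, 1 and 11. Inflamed HEC with several mitotic genes numbered 25 at an FPKM of 1, 3 at 50 and 1 in the middle range (0 homeostatic), against 8, and those with both 21, 1 and 0 (0 homeostatic), against 7.

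The count of members higher by 1 in inflamed than in homeostatic HEC was 19 and 0 with pseudocounts of 0.1 and 10, 20 by arithmetic means (2 lower), 8 and 2 when rescaled to equal sums and by median ratio, and 0 in the middle range, against 5. The count higher by 10 points was 20 at an FPKM of 1, 2 at 50, 11 when rescaled to equal sums and 1 in the middle range, against 6. The share of all genes past each limit was computed for the main setting only. Counts of members under other settings, here and for the comparisons below, therefore cannot be read as results about the members. By arithmetic means the mitotic median was 1.54. Leaving out single cells gave replication medians of 0.50 to 0.63 and mitotic medians of 0.43 to 0.63. Without homeostatic HEC 62 they were 0.63 and 0.63.

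For homeostatic HEC against BEC, members higher by 1 were 3 and 0 with the pseudocounts, 21 by arithmetic means and 0 in the middle range, and members lower by 1 were 1 (pseudocount 0.1), 4 (arithmetic means), 1 (each rescaling) and 5 (middle range). By 10 points, 2, 0 and 3 were higher and 2, 2 and 7 lower at an FPKM of 1, at 50 and in the middle range. By arithmetic means the mitotic median was 1.60, over 3 members.

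For dedifferentiated against homeostatic HEC, the replication median of -0.65 (7 members) was -0.26 with a pseudocount of 10, -0.27 when rescaled to equal sums, 0.16 by median ratio, -0.27 in the middle range and -0.19 over all 17. The mitotic median of -0.43 (3 members) was -1.05 and -0.14 with pseudocounts of 0.1 and 10, -2.85 by arithmetic means, -0.17 by median ratio, -0.12 over all 21 and -0.47 to -0.32 leaving out single cells. Members lower by 1 were 5 (pseudocount 0.1), 19 (arithmetic means), 1 (without cells of other markers) and 1 (rescaled to equal sums), and higher by 1 were 1 (pseudocount 0.1) and 2 (arithmetic means). By 10 points, 1 was higher and 7 lower at an FPKM of 1, and 1 lower in the middle range.

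The causes of these shifts were not tested. No paired analysis was possible because the numbers in the labels only name cells and pair no samples across groups. With 1 sample per group, no spread between animals is known.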
